A study of Mus musculus with 6 samples.

Results

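The genes described here are 43 chaperones and stress regulators of mouse heart ventricle: 23 cytosolic chaperones, co-chaperones and heat shock factors, 3 of the mitochondrial matrix and 17 of the endoplasmic reticulum (ER) and its unfolded protein response. They were taken by symbol from a list, not by their values, and all 43 were found among the 25006 genes of the count tables. All 43 also passed the filter on low counts, which left 14815 genes for testing. The libraries came from NMRI embryos at embryonic day 17.5. The 3 control libraries carry the genotype label WT, and the 3 null libraries the label VecadcreERT2; Prox1f/f, a floxed Prox1 gene together with a tamoxifen-inducible Cre recombinase. The VE-cadherin promoter drives that Cre in endothelial cells, so most cells of a ventricle are not its target. Tamoxifen was injected into the pregnant females, 5 mg for each 40 g they weighed, on E13.5 and again on E14.5, so control embryos were exposed to the drug as well. The parents were Prox1f/f females and VecadCreERT2; Prox1f/f males. Every embryo of that cross would be Prox1f/f, so the WT label of the controls does not match it. Whether the controls carry floxed Prox1 is not settled by the labels. Cre is named only in the null genotype, so effects of Cre and of the Prox1 deletion cannot be told apart. The labels do not say whether each library is a separate embryo. The p-values then measure only the spread between these libraries. Sex-linked counts, given below, differ within each group, so its libraries do not all repeat the same sample. Part of the spread may still be technical.

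Chaperones bind unfolded or partly folded proteins and release them through cycles of ATP binding and hydrolysis, helped by co-chaperones of the J-domain and nucleotide exchange families. In the cytosol, heat shock factor 1 binds heat shock elements in DNA and raises the transcription of HSP70, HSP90 and small heat shock protein genes when unfolded proteins accumulate. In the ER, the sensors ATF6, IRE1 and PERK act through the transcription factors ATF6, XBP1 and ATF4 on genes for ER chaperones, protein disulfide isomerases and degradation factors. Heart muscle holds large amounts of small heat shock proteins, which guard the contractile filaments.

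Both response elements are shown here because their matches fell in genes of different compartments. Many cytosolic and ER genes held neither. Promoter windows from 250 bases before to 50 after each gene's start were taken from RefSeq (GRCm38.p6), and 35 of the 43 genes had one. The ER stress element, searched on both strands as CCAAT, any 9 bases and then CCACG, lay in windows of 6 of the 35 genes, all of the ER: Hspa5, Hsp90b1, Dnajc3, Calr, Canx and Pdia6. Over the whole table it lay in 39 of 32851 windows (0.119%), or 0.137% of genes. Stretches around it are printed for 4 of these genes with capitals marking its ends. In Calr it was read on the opposite strand and therefore appears reversed.
Calr, chr8:84847060-84847108, minus strand: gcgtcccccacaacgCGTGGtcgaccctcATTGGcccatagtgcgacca
Canx, chr11:50325785-50325833, minus strand: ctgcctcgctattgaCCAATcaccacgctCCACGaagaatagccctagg
Pdia6, chr12:17266476-17266524, plus strand: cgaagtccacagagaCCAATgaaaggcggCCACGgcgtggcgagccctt
Dnajc3, chr14:118937812-118937860, plus strand: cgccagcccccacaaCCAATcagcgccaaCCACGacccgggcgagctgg

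The heat shock element, searched on both strands as GAANNTTC or TTCNNGAA with overlapping matches allowed, lay in windows of 13 of the 35 genes (37.1%). These were 11 of 18 cytosolic, 2 of 2 mitochondrial and 0 of 15 ER genes, against 15.1% of all windows and 16.97% of all genes in the table. The 2 mitochondrial genes, Hspd1 and Hspe1, share the same matched stretch, chr1:55088044-55088091, read on opposite strands. Capitals mark the element in the 4 stretches printed. The Hspb1 promoter held it at 2 places, and the stretches of Hspa1a and Hspa1b, neighbouring copies on chromosome 17, were identical.
Hspb1, chr5:135887787-135887844, plus strand: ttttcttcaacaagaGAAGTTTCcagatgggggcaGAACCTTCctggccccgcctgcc
Hspb6, chr7:30553166-30553203, plus strand: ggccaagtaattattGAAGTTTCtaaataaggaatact
Hspa1a, chr17:34972238-34972275, minus strand: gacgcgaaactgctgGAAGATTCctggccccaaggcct
Hspa1b, chr17:34959320-34959357, minus strand: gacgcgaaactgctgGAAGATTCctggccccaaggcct

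The core of the ATF4 composite element, TGATGNAA on either strand, lay in a window of 1 of the 35 genes (2.86%), Herpud1. This was below the 3.97% of all windows and 4.51% of all genes in the table. It is printed here because Herpud1 had one of the smallest p-values of the ER genes. Capitals mark the match, which was read on the opposite strand.
Herpud1, chr8:94386302-94386339, plus strand: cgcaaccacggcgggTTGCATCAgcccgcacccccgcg
The core of the unfolded protein response element, TGACGTGG, lay in none of the 35 genes' windows and in 0.676% of all windows. A match is only a match of letters.

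Between 35195544 and 44330594 counts fell on genes in each library. Levels are given as CPM (a gene's counts scaled to the size of its library), after trimmed-mean correction of that size. The null libraries did not have less Prox1 RNA, the transcript of the floxed gene: its level was 147 ± 3.15 CPM in controls and 164 ± 3.91 CPM in null (SD, n = 3 each), with a log2 fold change of 0.15 ± 0.03 (SE) and an adjusted p of 0.0331 by edgeR's quasi-likelihood test. Gene totals do not show which exons the reads covered, so these values do not measure the deletion. The Y-linked gene Ddx3y and the X-inactivation transcript Xist marked the libraries unevenly. Control 3 and null 2 had 49485 and 50586 Xist counts with 55 and 69 Ddx3y counts, and controls 1 and 2 had 28 and 29 Xist counts. Null 1 and null 3 held both, with 1798 and 5738 Xist counts beside 2999 and 3129 Ddx3y counts, so results are also given without these 2 libraries. Control 3 had a summed level of 6 hepatocyte markers of 14.4 CPM against 0.477 to 4.82 CPM in the other 5 libraries, and the highest sum of 6 erythroid markers, 4582 CPM against 1081 to 2597 CPM. The 9 cardiomyocyte markers summed to between 64990 and 70566 CPM in every library.

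Across the whole set, 41 of the 43 chaperone genes did not differ between control and null at an adjusted p under 0.05. Atf6, the ER membrane sensor, was higher in null, and Dnajb5, a J-domain co-chaperone of HSP70, was lower. These 2 genes are 4.65% of the set, beside 5.41% of all 14815 genes tested, so the share called was near the background. By direction the background was 2.43% of genes higher and 2.98% lower. The 3 control and 3 null libraries did not overlap for 11 genes (25.6%), beside 26.6% of all genes. The median log2 fold change was -0.01 over the 43 genes, with 21 above 0 and 22 below, and 0.00 over all genes (-0.00396).

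**Figure D1:**
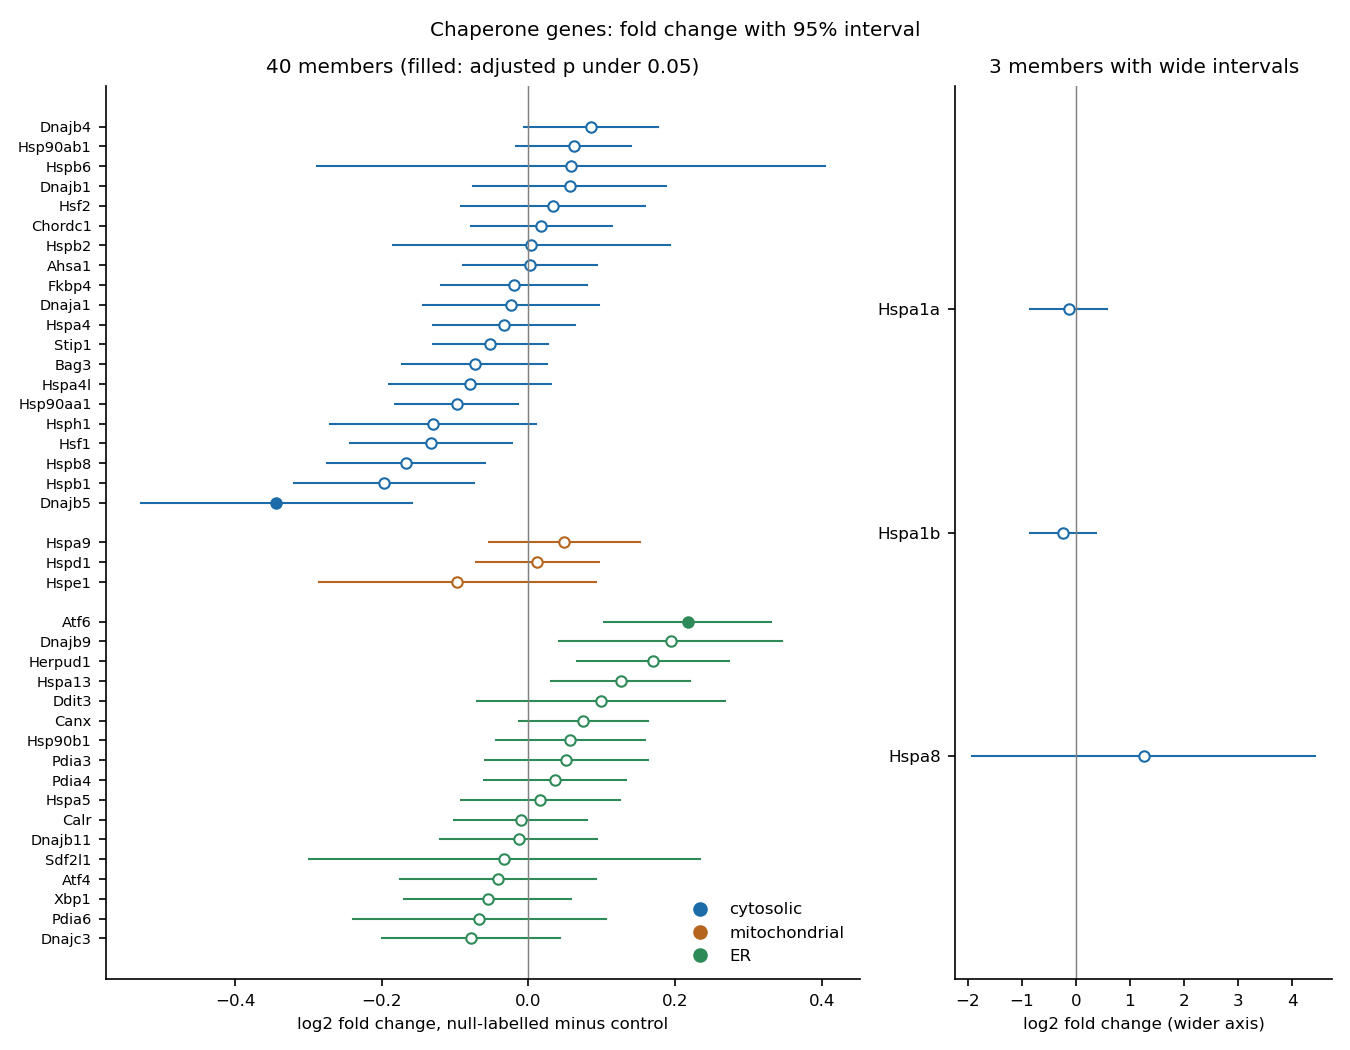
Log2 fold change (null minus control) of each of the 43 genes with its 95% interval from edgeR, grouped by compartment. Atf6 (0.22) and Dnajb5 (-0.34) are the 2 genes that passed the adjusted threshold, and the interval of Hspa8 runs from -1.91 to 4.42.

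Most of these genes were measured closely enough to bound the size of a change. Leaving aside Hspa8, Hspa1a and Hspa1b, 34 of the other 40 had an estimated change under 1.1-fold in either direction. The 95% interval lay inside 1.3-fold for 38 of the 40, the exceptions being Hspb6 and Dnajb5, and inside 1.5-fold for all 40. These bounds were chosen after the values were seen, and Atf6 and Dnajb9 lay close to the narrower one, with intervals reaching 25.8% and 27.1% above control. In simulated counts with the same libraries, the test recovered 22% of genes changed 1.2-fold and 80% of those changed 1.5-fold. Over such genes a change of the smaller size could often be missed. The changed genes were drawn from the whole table and not from this set, so these shares need not hold for the 40 genes.

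At an unadjusted p under 0.05 there were 9 genes (20.9% of the set, beside 20.5% of all genes), a share near the background. They were 5 cytosolic genes (21.7% of 23), all lower in null, and 4 ER genes (23.5% of 17), all higher in null. The 5 were Dnajb5, Hspb1, Hspb8, Hsp90aa1 and Hsf1, and the 4 were Atf6, Herpud1, Hspa13 and Dnajb9. The background at this threshold was 9.55% of all genes higher and 10.9% lower. The difference between compartments was not tested, and 7 of these 9 genes missed the adjusted threshold.

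The plot of levels per kilobase of exon ranks the genes by abundance. Hsp90ab1, the constitutive cytosolic HSP90, stood first with a mean level of 676 CPM per kilobase in controls and 705 in null. The mitochondrial HSP70 gene Hspa9 followed at 204 CPM per kilobase in controls, ahead of the ER lectin chaperone Calr (189), the ER HSP70 gene Hspa5 (169) and the ER HSP90 gene Hsp90b1 (153). Hsp90aa1, the inducible HSP90, was far below its paralog at 22.5 CPM per kilobase. The stress-inducible HSP70 genes Hspa1a and Hspa1b had the lowest levels of the set, 0.347 and 0.391 CPM per kilobase. Order between genes also depends on how reads shared with near copies were counted, which differs from gene to gene as given with each gene.

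**Figure D2:**
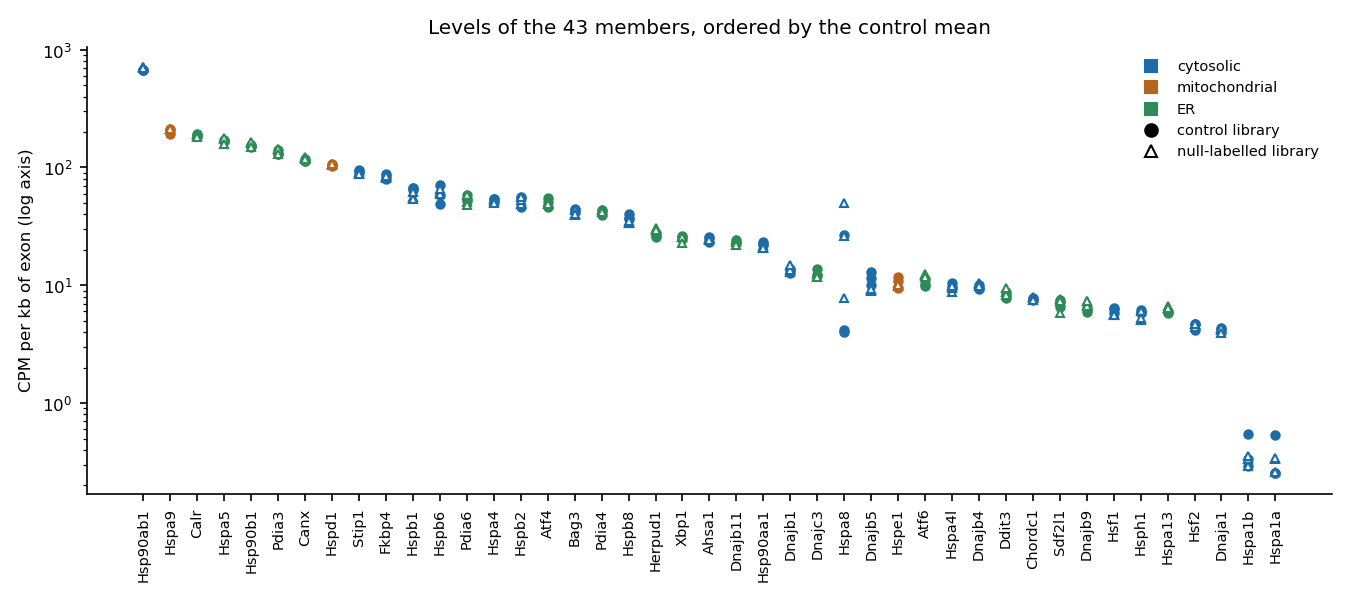
Level of each gene in CPM per kilobase of exon on a log axis, with a circle for each control and a triangle for each null library, ordered by the control mean. Hsp90ab1 has the highest control mean, 676, and Hspa1a the lowest, 0.347.

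The cytosolic group of 23 genes had 1 lower call, no higher call, and a median log2 fold change of -0.03, with 14 genes below 0 and 9 above. Its summed level was 3865 to 4038 CPM in controls and 3980 to 4163 CPM in null, ranges that overlapped. The groups did not overlap for 6 of the 23 genes (26.1%), beside 26.6% of all genes.

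Dnajb5 (chr4:42949814-42959425, GRCm38, plus strand) encodes an HSP40 co-chaperone that stimulates the ATPase of HSP70. Its level was 68.7, 76.8 and 60.1 CPM in controls 1 to 3 and 53.8, 52.7 and 55.5 CPM in null 1 to 3. Every null library lay below every control library, and the controls were the more scattered group. The means were 68.5 ± 8.34 and 54.0 ± 1.39 CPM (SD, n = 3 each), a log2 fold change of -0.34 ± 0.08 (SE, 95% interval -0.53 to -0.16) with an adjusted p of 0.0486 by edgeR. In bulk tissue, fewer cells of a type and less RNA per cell cannot be told apart. The call was held without control 3 (adjusted p = 0.00417). It was lost when any other single library was left out: omitting control 1 gave an adjusted p of 0.114, omitting control 2 gave 0.0755, and omitting null 1, 2 or 3 gave 0.147, 0.166 or 0.121. The log2 fold change stayed between -0.43 and -0.26. With all libraries, the call was also lost under upper quartile scaling (adjusted p = 0.051) and limma-voom (0.056).

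Hsf1, the heat shock transcription factor, had levels of 44.6, 45.9 and 41.4 CPM in controls and 40.5, 39.7 and 40.0 CPM in null. The groups did not overlap, by a margin of less than 1 CPM between control 3 and null 1. With a log2 fold change of -0.13 ± 0.05 (SE) and an adjusted p of 0.16 by edgeR, it missed the threshold. Hsf2, a related factor, had a log2 fold change of 0.03 ± 0.06 (SE).

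The HSP90 paralogs lay on opposite sides of 0. Hsp90ab1 measured 2027, 2024 and 2029 CPM in controls and 2116, 2123 and 2107 CPM in null. The control libraries differed by a coefficient of variation of 0.134%, the smallest of the set, and all null libraries lay above them. Its log2 fold change was 0.06 ± 0.04 (SE, 95% interval -0.02 to 0.14), with an adjusted p of 0.361 by edgeR. Hsp90aa1 measured 86.2, 88.6 and 90.7 CPM in controls and 84.2, 82.0 and 81.9 CPM in null, again without overlap. Its log2 fold change was -0.10 ± 0.04 (SE), adjusted p = 0.173 by edgeR. The HSP90 co-chaperones Stip1, Ahsa1, Fkbp4 and Chordc1 had log2 fold changes between -0.05 and 0.02.

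Hspa8, the constitutive cytosolic HSP70 that also uncoats clathrin vesicles, was the most variable gene of the set. It had 5052, 623 and 636 counts in controls and 4550, 7846 and 1393 counts in null, or 115, 17.3 and 18 CPM against 113, 216 and 33.7 CPM. Control 1, null 1 and null 2 were high and the other 3 libraries low, so both groups held high and low libraries. The highest library was 12.5 times the lowest over all 6, 6.63 times within controls and 6.40 times within null. The log2 fold change of 1.26 ± 1.16 (SE, 95% interval -1.91 to 4.42) had an adjusted p of 0.63 by edgeR.

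No other gene of the set came near this spread. The biological coefficient of variation, edgeR's estimate of spread beyond counting, was 90.4% for Hspa8 against 4.73% to 11.8% for the 40 genes named above and a median of 7.16% over all genes. Of the 9802 genes whose mean level reached 10 CPM, 8 had a value this high, namely Hspa8, the ribosomal protein genes Rps19 and Rpl26, Xist and the Y-linked Kdm5d, Uty, Ddx3y and Eif2s3y. Rps19 had 1883, 154 and 2966 counts in controls and 2018, 1534 and 271 in null. Rpl26 had 75, 1131 and 18 counts in controls and 1273, 1087 and 134 in null. These 3 genes did not share an order over the libraries: control 3 was the highest for Rps19 and the lowest for Rpl26.

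Transcripts of these 3 genes have near copies among other annotated genes, a trait that is not particular to them. Of the 50-base windows of Hspa8 transcripts, 38.6% also occurred in transcripts of 14 other annotated genes, and the shares were 22.7% for Rpl26 and 6.37% for Rps19. Of the 43 genes, 22 shared no window and 8 shared over 10%, and Atf6 and Dnajb5 shared none. Among the 8, Hsp90aa1 (47.5%), Hspb1 (48.8%), Hspd1 (39.7%) and Dnaja1 (11.9%) had spreads below the median of all genes. Hspa8, Hspa1a (60.4%), Hspa1b (62.3%) and Hspe1 (18.4%) had spreads above it. The search compared letters only and did not follow how reads were assigned. The part of such copies in the Hspa8 counts was not tested. Its level and fold change are therefore uncertain.

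**Figure D3:**
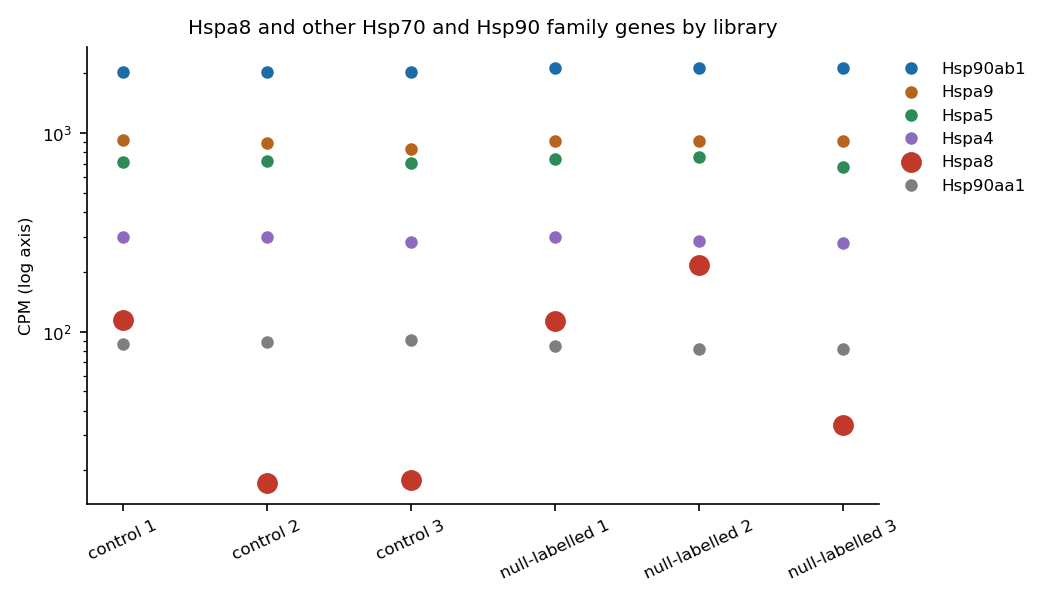
Level in CPM (log axis) of Hspa8 and 5 other HSP70 and HSP90 genes in each control and null library. Hspa8 ranges from 17.3 to 216 CPM with high and low libraries in both groups, while each of the other 5 genes stays nearly level.

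The stress-inducible pair Hspa1a and Hspa1b, which rise steeply in stressed or heated cells, was barely detected. Hspa1a had 33, 27 and 56 counts in controls and 40, 28 and 42 in null, and Hspa1b had 36, 34 and 54 in controls and 38, 30 and 41 in null. Control 3 was the highest library for both, and the groups overlapped. Their log2 fold changes were -0.13 ± 0.32 and -0.24 ± 0.27 (SE). They share 60.4% and 62.3% of their 50-base windows with other genes, so both levels depend on how shared reads were counted, which is not given. If shared reads were left out, both levels would be too low. Their cytosolic relatives Hspa4, Hspa4l and Hsph1, which act as exchange factors for HSP70, had log2 fold changes of -0.03, -0.08 and -0.13, none past the adjusted threshold. Immediate early genes, which rise with handling, had 0 of 8 called, beside 5.41% of all genes. They summed to 174 to 190 CPM in controls and 164 to 178 CPM in null. Of the 8, 6 lay below 0 and 2 above. Ier2 was lower in null without overlap between groups (log2 fold change -0.26, adjusted p = 0.061 by edgeR).

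Small heat shock proteins hold unfolding proteins without using ATP, and none of them passed the adjusted threshold. Hspb1 (HSP25) measured 65.9, 69.3 and 69.0 CPM in controls and 58.4, 55.7 and 64.0 CPM in null, all null libraries below all controls. The difference, -0.20 ± 0.05 on the log2 scale (SE), had an adjusted p of 0.0708 by edgeR. Hspb8, which works with the exchange factor Bag3 in selective autophagy of filament proteins, measured 73.0, 79.3 and 71.5 CPM in controls and 65.6, 65.4 and 68.3 CPM in null. The groups did not overlap here either, and the log2 fold change was -0.17 ± 0.05 (SE), adjusted p = 0.0806 by edgeR. Its partner Bag3 had a log2 fold change of -0.07 ± 0.04 (SE). Hspb6 and Hspb2, abundant in muscle, had log2 fold changes of 0.06 ± 0.14 and 0.00 ± 0.08 (SE). The 95% interval of Hspb6, -0.29 to 0.40, includes the estimates of Hspb1 and Hspb8. From the wider list, the family members Cryab, Hspb7 and Hspb3 had log2 fold changes of -0.11, -0.08 and -0.02. Hspb6 had the widest spread of the 40 genes, 134, 163 and 113 CPM in controls. Hspb2 shares 30.2% of its exon bases with Cryab on the other strand, and without a stated strand setting reads there cannot be told apart. The remaining J-domain genes Dnaja1, Dnajb1 and Dnajb4 had log2 fold changes of -0.02, 0.06 and 0.09.

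**Figure D4:**
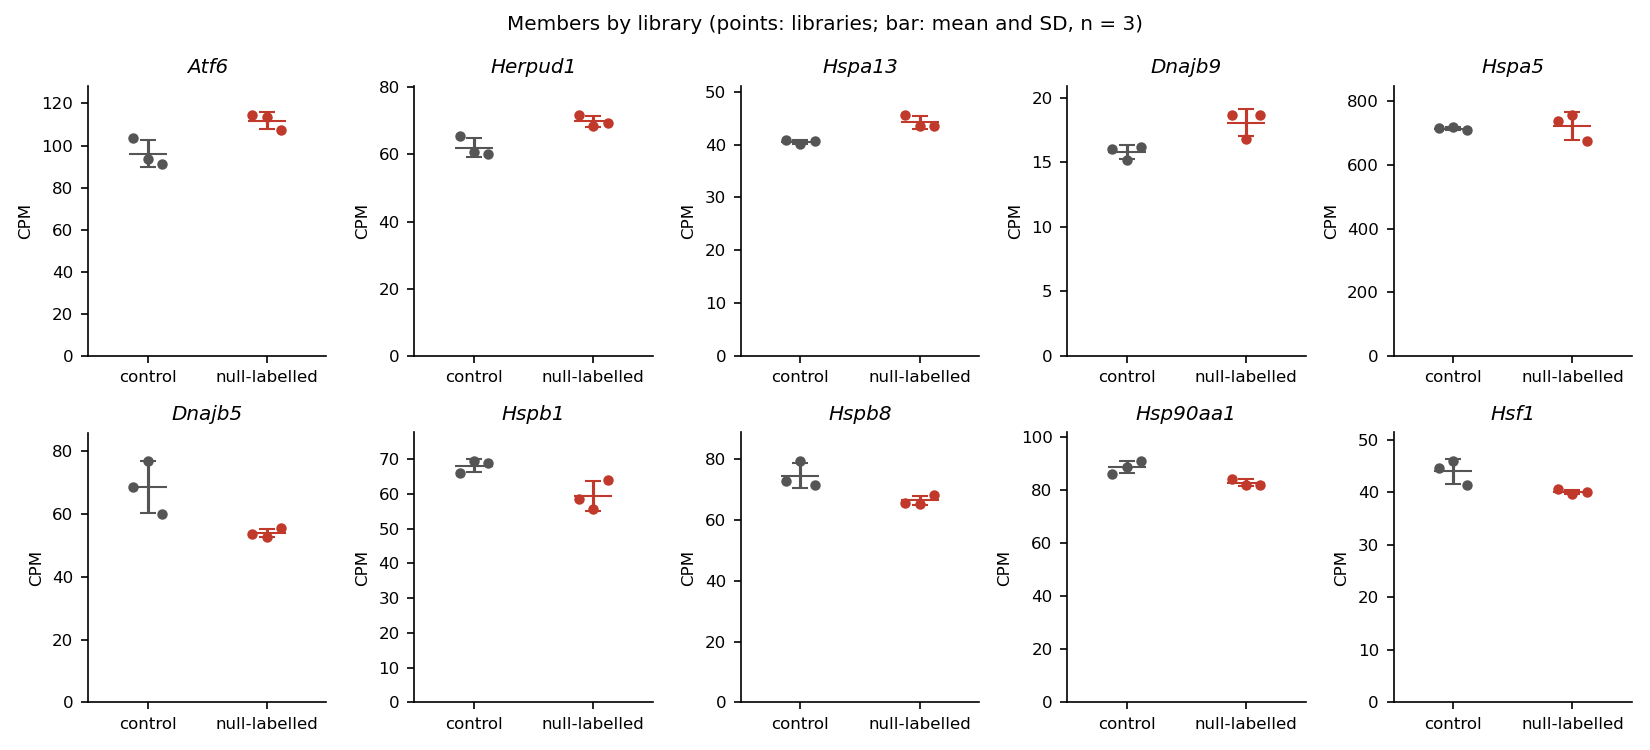
Level in CPM of Hspa5 and the 9 genes with an unadjusted p under 0.05, with a point for each library and bars for the mean and SD of 3 libraries. Dnajb5 lies at 60.1 to 76.8 in controls and 52.7 to 55.5 in null, and Atf6 at 91.4 to 104 in controls and 107 to 115 in null.

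The mitochondrial matrix chaperones showed no call, and their groups overlapped in all 3 cases. Hspa9, the matrix HSP70 that pulls in and folds imported proteins, measured 919, 888 and 827 CPM in controls and 909, 907 and 908 CPM in null. The null libraries lay within the range of the controls. Hspd1 (HSP60) measured 285, 275 and 273 CPM in controls and 281, 275 and 284 CPM in null. Its lid Hspe1 (HSP10) measured 17.5, 16.2 and 14.1 CPM in controls and 15.4, 14.4 and 14.8 CPM in null. Log2 fold changes were 0.05 ± 0.05 for Hspa9, 0.01 ± 0.04 for Hspd1 and -0.10 ± 0.08 for Hspe1 (SE), with adjusted p of 0.614, 0.9 and 0.577 by edgeR. Hspd1 and Hspe1 are divergent neighbours on chromosome 1 whose exons overlap by 4.2% and 7.6% of their bases.

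The ER group of 17 genes had 1 higher call, no lower call, and a median log2 fold change of 0.04, with 10 genes above 0 and 7 below. The groups did not overlap for 5 of the 17 genes (29.4%), near the 26.6% of all genes. Its summed level was 3676 to 3758 CPM in controls, and null 3 (3629 CPM) lay below all controls while null 1 and null 2 (3911 and 3879 CPM) lay above them. The median log2 ratio of the 17 genes to their control means was 0.08 in null 1, 0.06 in null 2 and -0.04 in null 3.

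Atf6 (chr1:170704674-170867771, GRCm38, minus strand) encodes a sensor that is cut in the Golgi under ER stress and releases a transcription factor. Its level was 104, 93.7 and 91.4 CPM in controls 1 to 3 and 115, 114 and 107 CPM in null 1 to 3. All null libraries lay above all controls, with null 3 and control 1 nearest each other. The means were 96.2 ± 6.46 and 112 ± 3.88 CPM (SD, n = 3 each), which is 16.2% higher and a log2 fold change of 0.22 ± 0.05 (SE, 95% interval 0.10 to 0.33), adjusted p = 0.0398 by edgeR. Leaving out single libraries kept the sign and a log2 fold change of 0.18 to 0.28, but the call held only without control 1 (adjusted p = 0.0116), and with all libraries limma-voom gave 0.0603. Omitting control 2 or 3 gave an adjusted p of 0.133 or 0.0706, and omitting null 1, 2 or 3 gave 0.132, 0.143 or 0.0713.

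The other transcription factors of the response did not pass the test. Atf4, made when translation is slowed by PERK or related kinases, measured 121, 131 and 109 CPM in controls and 119, 117 and 115 CPM in null, a log2 fold change of -0.04 ± 0.06 (SE). Its target Ddit3 (CHOP), a factor linked to cell death under lasting stress, measured 13.4, 15 and 14.1 CPM in controls and 14.9, 14.3 and 16.2 CPM in null. The groups overlapped for both. Ddit3 had a log2 fold change of 0.10 ± 0.08 (SE). Xbp1, whose mRNA is spliced by IRE1, measured 81.0, 83.6 and 84.4 CPM in controls and 82.7, 83.2 and 73.7 CPM in null, with null 3 alone low. Xbp1 had a log2 fold change of -0.06 ± 0.05 (SE). Splicing cannot be read from gene counts. Adjusted p by edgeR were 0.754 for Atf4, 0.518 for Ddit3 and 0.601 for Xbp1.

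The ER chaperones that these factors act on stayed close to control. Hspa5 (BiP), the main ER HSP70, measured 716, 718 and 708 CPM in controls and 736, 757 and 673 CPM in null. Null 1 and null 2 were above and null 3 below all controls, and the log2 fold change was 0.02 ± 0.05 (SE, 95% interval -0.09 to 0.13), adjusted p = 0.895 by edgeR. Hsp90b1 (GRP94), the lectin chaperones Calr and Canx, and the disulfide isomerases Pdia3, Pdia4 and Pdia6 had log2 fold changes between -0.07 (Pdia6) and 0.07 (Canx). Canx did not overlap between groups but missed the threshold (adjusted p = 0.32 by edgeR). The BiP co-chaperones Dnajc3, Dnajb11 and Sdf2l1 had log2 fold changes of -0.08, -0.01 and -0.03.

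Herpud1, Hspa13 and Dnajb9 lay above control in every null library without passing the adjusted threshold. Herpud1, a membrane protein of ER-associated degradation, measured 65.4, 60.7 and 59.97 CPM in controls and 71.7, 68.3 and 69.3 CPM in null. The difference was 0.17 ± 0.05 on the log2 scale (SE), adjusted p = 0.0675 by edgeR. Hspa13, a microsomal HSP70 relative, measured 40.8, 40.1 and 40.7 CPM in controls and 45.6, 43.5 and 43.5 CPM in null, a log2 fold change of 0.13 ± 0.04 (SE). Dnajb9, a BiP co-chaperone and XBP1 target, is the least abundant of these. It measured 16.0, 15.1 and 16.2 CPM in controls and 18.7, 16.8 and 18.7 CPM in null, a log2 fold change of 0.19 ± 0.07 (SE). Adjusted p by edgeR were 0.128 for Hspa13 and 0.139 for Dnajb9.

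Fold changes were also read by promoter element. The 6 ER genes with the ER stress element had a median log2 fold change of 0.00 (0.00292), with 3 above and 3 below 0. The 13 genes with a heat shock element had a median of -0.07, with 4 above and 9 below 0, beside 0.00 (0.00284) over the 1609 tested genes that hold it. These are descriptions without a test.

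A wider list of 103 further chaperone and stress genes, all tested, gave 2 higher and 2 lower calls (3.88%, beside 5.41% of all genes), and its median log2 fold change was -0.01. Among 38 cytosolic genes 2 were lower. Hspa12b, an HSP70 relative known from endothelial cells, measured 65.7, 61.3 and 58.2 CPM in controls and 46.0, 43.8 and 48.4 CPM in null. Its log2 fold change was -0.42 ± 0.06 (SE), adjusted p = 0.0048 by edgeR. Dnaja4, a J-domain co-chaperone, measured 33.5, 37.0 and 34.3 CPM in controls and 28.3, 28.0 and 29.3 CPM in null. No library of either group overlapped the other for these genes. Dnaja4 had a log2 fold change of -0.29 ± 0.05 (SE), adjusted p = 0.0161 by edgeR, and lost its call without null 1 (0.0564) or null 2 (0.0716).

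None of 12 mitochondrial chaperones and proteases and none of 33 further genes of ER folding, the unfolded protein response and degradation passed the adjusted threshold in edgeR. At an unadjusted p under 0.05 there were 1 (8.33%) and 6 (18.2%) of them, both below the 20.5% of all genes. The 6 were 5 higher and 1 lower in null. Of the 38 cytosolic genes of this list, 6 (15.8%) had such a p, 1 higher and 5 lower. Among the 20 genes of the integrated stress response, 2 were higher and none lower, beside 2.43% and 2.98% of all genes. Another 2 had an unadjusted p under 0.05 in the opposite direction, Psat1 with a log2 fold change of -0.19 and Eif2ak4 with -0.13. Sesn2, a leucine-sensing inhibitor of mTORC1 signalling, measured 10.4, 10.03 and 10.2 CPM in controls and 13.9, 15.2 and 13.9 CPM in null. Its log2 fold change was 0.49 ± 0.07 (SE), adjusted p = 0.00743 by edgeR. Eif2ak2 (PKR) is a kinase of the translation factor eIF2 that double-stranded RNA activates and interferon induces. It measured 35.0, 32.4 and 34.2 CPM in controls and 51.8, 42.2 and 46.7 CPM in null, a log2 fold change of 0.47 ± 0.07 (SE), adjusted p = 0.00916 by edgeR. The 2 genes do not belong to chaperone folding. Trib3 (log2 fold change -0.14, adjusted p = 0.637) and Chac1 (0.63, adjusted p = 0.447), ATF4 targets of the list, did not pass in edgeR.

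**Figure D5:**
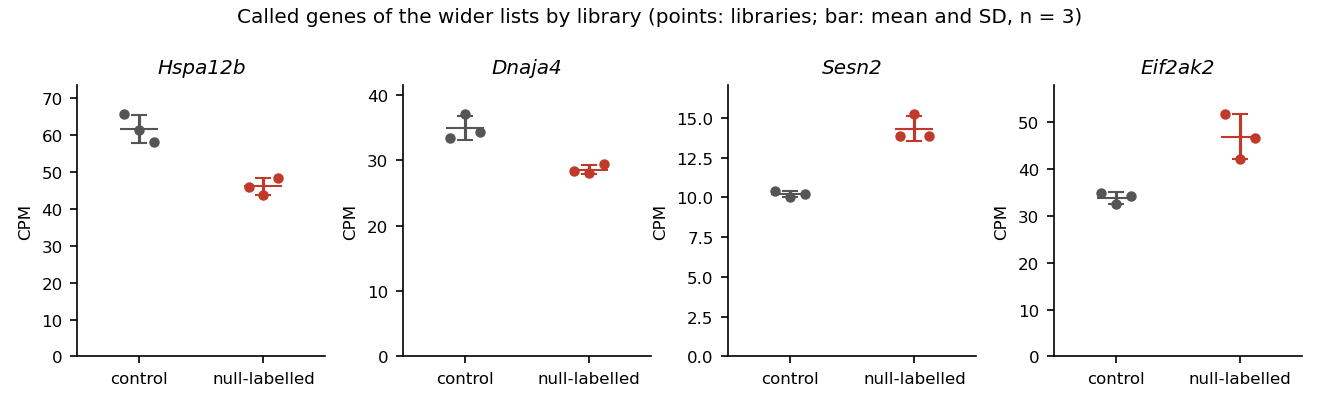
Level in CPM of the 4 genes of the wider list that passed the adjusted threshold, with a point for each library and bars for the mean and SD of 3 libraries. Hspa12b and Dnaja4 lie lower and Sesn2 and Eif2ak2 higher in all 3 null libraries than in all 3 controls.

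Without null 1 and null 3, which leaves 1 null library whose spread is taken from the controls, none of the 6 called genes kept its call. The adjusted p by edgeR were 0.361 for Atf6, 0.443 for Dnajb5, 0.105 for Hspa12b, 0.267 for Dnaja4, 0.119 for Sesn2 and 0.2 for Eif2ak2, with the sign of each unchanged. Their log2 fold changes in that fit were 0.24, -0.38, -0.49, -0.32, 0.58 and 0.32 in the same order. Calls over all genes also fell there, to 21 higher and 31 lower of 15194 (0.342%) from 5.41%.

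Markers of several cell types moved with the groups. Over all genes, 2.43% were called higher and 2.98% lower. Of 6 endothelial markers, all below 0, 4 were lower in null (Egfl7, Tie1, Tek and Pecam1), and their sum was 1305 to 1461 CPM in controls and 1164 to 1256 CPM in null. Of 6 fibroblast markers 3 were higher, with sums of 5542 to 6732 against 7168 to 7878 CPM. Of 6 macrophage markers 4 were higher, with sums of 48.7 to 53.7 against 60.9 to 79.6 CPM. Of 9 cardiomyocyte markers 1, Actc1, was lower, and 5 of the 9 lay above 0. At an unadjusted p under 0.05 by edgeR, 2 were higher (Ryr2 and Myh6, log2 fold changes 0.23 and 0.14) and 1 was lower. None of 4 smooth muscle and 5 tested erythroid markers passed, but all lay below 0, with median log2 fold changes of -0.64 and -0.97. Smooth muscle sums were 772 to 1207 CPM in controls and 749 to 810 CPM in null, and erythroid sums 1516 to 4582 against 1081 to 1788 CPM, with control 3 highest for both. Myh11, Hba-a1 and Slc4a1 did not overlap between groups. The part of these shifts in the values of Atf6, Dnajb5, Hspa12b, Dnaja4, Sesn2 and Eif2ak2 was not tested.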

How the data were processed

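RNA of heart ventricle was sequenced in 3 control and 3 null libraries. The authors deposited raw counts per Ensembl gene, with no normalization. The submitters' processing notes name cutadapt 1.13, STAR, HTSeq 0.6.1p1, DESeq2 and mm10; strand use, annotation and settings: not given in the sources used here. Of 25006 gene IDs, 24991 matched GENCODE M21 symbols.

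Counts were filtered by group with filterByExpr, scaled by TMM and fitted with edgeR 4.0.16 (quasi-likelihood F test, robust, group only, two-sided; R 4.3.3), with Benjamini-Hochberg adjustment over 14815 genes at 0.05. Depth was 35195544 to 44330594 counts per library, and 3 counts equal 0.0677 to 0.0852 CPM. The script was tested on simulated data. Alternatives were other scalings, no filter, DESeq2 1.42.0, limma 3.58.1 (voom), a replicate block, left-out libraries and a threshold of 0.1.

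The members and lists were chosen with earlier results of these data known. Every called gene and 14 preset members are named with all values; other members are given by range or clause, and at most 6 per wider list. Several uncalled members were given per library after their values were seen.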

Additional observations from a re-analysis of the deposited data

How the results depend on the processing

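With 1 higher and 1 lower call among the 43 genes, small shifts move the counts, and the cause was not tested beyond each setting's own construction. Higher calls numbered 2 with DESeq2, 0 with limma-voom, 2 at a threshold of 0.1, and 0 to 2 with single libraries left out. Lower calls numbered 0 with upper quartile scaling, 2 with no filter, 2 with DESeq2, 0 with limma-voom, 3 at 0.1, and 0 to 3 with single libraries left out. Without null 1 and null 3 both counts were 0, and so were the higher and lower counts of the wider list (2 and 2 otherwise). Calls over all genes moved too, from 5.41% to 0.342% without null 1 and null 3, 7.40% with DESeq2, 4.50% with limma-voom, 9.65% at 0.1 and 1.72% to 6.27% with single libraries left out. The wider list's lower calls numbered 5 at 0.1 and 1 to 4 with single libraries left out. The additions were Herpud1 with DESeq2 (adjusted p = 0.0431) and without control 1 (0.0425), Hspb1 with DESeq2 (0.0458) and with no filter (0.0463), and Hspb8 and Hsf1 without control 3 (0.0453 and 0.0468). Compartment medians moved by less than the spread between libraries in every setting tried.

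Same-numbered control and null libraries did not deviate together over all genes (correlations -0.05, -0.10 and -0.16). Differences between libraries such as sex also enter these correlations. They therefore cannot tell whether same-numbered libraries shared a litter or batch. With the replicate block, 1 member was higher (Atf6) and 0 were lower (Dnajb5 at an adjusted p of 0.088), and over all genes 268 were higher and 302 lower against 360 and 441.

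Signs turned only for genes that were not called. Without null 1 and null 3, log2 fold changes were -0.013 for Hspb6, 0.051 for Dnaja1, 0.013 for Bag3, -0.015 for Hspd1, 0.0034 for Xbp1 and 0.063 for Sdf2l1. With single libraries left out they ran from -0.32 to 0.31 for Hspa1a, -0.42 to 0.071 for Hspa1b, -0.080 to 0.061 for Hspb2, -0.060 to 0.20 for Hspb6, -0.061 to 0.012 for Dnaja1, -0.0048 to 0.10 for Dnajb1, -0.021 to 0.062 for Hsf2, -3.90e-04 to 0.042 for Chordc1, -0.036 to 0.025 for Ahsa1, -0.063 to 0.012 for Fkbp4, -0.018 to 0.064 for Hspa5, -0.050 to 0.028 for Dnajb11, -0.11 to 0.020 for Atf4, -0.11 to 0.083 for Sdf2l1, -0.029 to 0.013 for Calr and -0.0016 to 0.062 for Pdia4. Depth limits Hspa1a and Hspa1b, with 56 counts or fewer in each library.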
